A study of Mus musculus with 4 samples.

Results

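The zinc and copper handling genes examined here are 31 of the 21883 protein-coding RefSeq genes on mouse chromosomes 1 to 19, X and Y. They were chosen by symbol: every Slc30a and Slc39a gene, Slc31a1, Slc31a2, Mt1, Mt2, Mtf1, Atp7a and Atp7b. Chromatin accessibility around them was measured by ATAC-seq, in which the Tn5 transposase cuts open chromatin and the released fragments are sequenced. The cells were organoids that had been grown from jejunal crypts of C57BL/6J mice, and 30000 cells went into each library. The 72 h organoids had received 100 ng/mL recombinant BMP2 for 72 h, and had lost Noggin (which blocks BMP ligands), CHIR99021 (which turns on Wnt signalling by inhibiting GSK3) and valproic acid (which inhibits histone deacetylases) for the same time. The 0 h organoids stayed in the full medium with those 3 agents and no BMP2. Both media held epidermal growth factor and R-spondin, and every organoid began in the full medium. BMP2 and the loss of the 3 agents cannot be told apart, because they changed together. With 1 library for each time, no value carries a replicate error and no p-value is given. Libraries of 24 h and 48 h belong to the series but were not analysed here.

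Zinc enters the cytosol through the Slc39 (ZIP) family and leaves it, toward the outside or into organelles, through the Slc30 (ZnT) family. In the small intestine Slc39a4 takes up dietary zinc at the apical membrane and Slc30a1 passes it on at the basolateral side. Copper enters through Slc31a1 and is moved on by the P-type ATPases Atp7a and Atp7b. Metallothioneins, encoded by Mt1 and Mt2, buffer both metals. Mtf1 is the zinc-sensing transcription factor that binds metal response elements and drives Mt1, Mt2 and Slc30a1. BMP signalling is stronger on the villus, where mature enterocytes absorb nutrients, than in the crypt.

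Of the 27 genes with a promoter window, 25 had a promoter peak in both libraries, against 50.5% of all genes with a window. The sites found in 1 library only lay mostly elsewhere and mostly at 72 h, as they did over all genes. A peak here is a region of fixed width, 300 bp on either side of a summit, that the authors called separately in each library, at p-value thresholds of 1e-05 (lenient) and 1e-10 (strict). The lists give no height, score or read count, so read depth is unknown and accessibility can only be described as called or not called. In a pool of cells, a site that is open in more cells and a site that is more open in each cell cannot be told apart. Each peak was assigned to the protein-coding gene that holds its midpoint or lies nearest to it, within 50 kb. A peak was shared when at least 1 bp of it was overlapped by a lenient peak of the other library, and otherwise belonged to 1 library only. A strict peak of 1 library only is a 1e-10 peak with no lenient peak of the other library over it.

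The promoters of Mt1, Mt2, Slc30a1 and Slc30a10 are shown as examples. They are 4 of the 14 member windows that were called in both libraries and carry the core of the metal response element. The upstream promoter of Slc39a5 is shown because it was the only promoter window of a member called in 1 library, the 72 h library. Of the 32 windows at members, 26 were called in both libraries and 5 in neither; 47.4% of all windows were called in both. Each runs from 250 bases before the RefSeq start to 30 bases after it, 5′ to 3′ on the gene's strand, in the GRCm38.p6 build that mm10 denotes. Capitals mark the element core, TGCACNC or TGCGCNC, read on either strand. A capital run longer than 7 letters holds overlapping matches.
Mt1 (chr8:94178839-94179118, plus strand): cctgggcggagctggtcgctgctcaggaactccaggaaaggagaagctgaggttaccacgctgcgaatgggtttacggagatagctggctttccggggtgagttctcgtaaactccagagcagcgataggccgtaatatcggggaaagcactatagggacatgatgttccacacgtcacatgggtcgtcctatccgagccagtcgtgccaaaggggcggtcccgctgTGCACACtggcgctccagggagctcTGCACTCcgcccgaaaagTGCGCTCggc
Mt2 (chr8:94172368-94172647, plus strand): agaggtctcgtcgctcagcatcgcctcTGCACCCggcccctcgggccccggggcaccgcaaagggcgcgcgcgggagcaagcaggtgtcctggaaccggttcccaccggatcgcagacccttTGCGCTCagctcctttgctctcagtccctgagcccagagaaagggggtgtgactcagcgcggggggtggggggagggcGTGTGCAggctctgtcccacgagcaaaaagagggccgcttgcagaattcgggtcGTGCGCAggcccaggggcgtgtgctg
Slc30a1 (chr1:191906531-191906810, plus strand): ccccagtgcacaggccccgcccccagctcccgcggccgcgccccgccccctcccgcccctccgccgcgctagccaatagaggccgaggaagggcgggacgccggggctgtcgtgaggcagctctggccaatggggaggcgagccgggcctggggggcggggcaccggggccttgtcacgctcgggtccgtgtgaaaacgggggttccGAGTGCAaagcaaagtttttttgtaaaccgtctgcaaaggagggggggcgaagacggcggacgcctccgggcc
Slc30a10 (chr1:185454598-185454877, plus strand): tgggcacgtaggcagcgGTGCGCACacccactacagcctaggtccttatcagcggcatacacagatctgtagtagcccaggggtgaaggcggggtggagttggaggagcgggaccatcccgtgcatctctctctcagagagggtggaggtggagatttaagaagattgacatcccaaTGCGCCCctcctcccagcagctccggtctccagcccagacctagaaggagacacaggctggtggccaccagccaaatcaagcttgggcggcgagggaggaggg
Slc39a5 (chr10:128401195-128401474, minus strand): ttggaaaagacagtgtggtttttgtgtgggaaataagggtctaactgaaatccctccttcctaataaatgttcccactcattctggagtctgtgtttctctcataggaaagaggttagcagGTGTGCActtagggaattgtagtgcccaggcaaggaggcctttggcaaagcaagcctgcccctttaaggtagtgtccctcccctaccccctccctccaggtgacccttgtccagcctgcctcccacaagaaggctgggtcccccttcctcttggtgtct

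The Mt2 window held 4 cores and the Mt1 window 3, all 3 of them within 23 bases of the RefSeq start. That start is an annotated position, and where transcription begins was not measured. Bases beyond 30 after it were not searched, so these counts do not rank the promoters by their elements. Slc30a10 also had 3, of which 2 were the same stretch read on both strands, and Slc30a1 and Slc39a5 had 1 each. Among the windows not printed, Slc30a4 held 3 cores and Atp7a and Slc30a2 2 each. Of 32 windows at the 27 members in the RefSeq promoter table, 17 (53.1%) held at least 1 core, against 27.4% of all 21262 windows of protein-coding genes. Among windows with a peak in both libraries the shares were 53.8% of 26 member windows and 36.6% of 10085 in all. At least 3 cores stood in 4 of the 32 member windows, counting that of Slc30a10, and in 2.12% of all windows. TGCACNC was found in 12 of the 32 and in 11.6% of all windows, and TGCGCNC in 9 of the 32 and in 18.2%. The members include Mt1, Mt2 and Slc30a1, which Mtf1 is known to drive, so these contrasts are not independent of the choice of genes. These matches describe letters, and no binding was measured.

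The promoter windows of 25 of the 27 members were overlapped by a peak in both libraries, against 50.5% of the 17491 protein-coding genes with a window. The other 2, Slc39a2 and Slc39a12, had no promoter peak in either library, as had 44.1% of all genes. Slc39a12 is known mainly from brain. No member had a promoter peak at 72 h only or at 0 h only when all windows of a gene were pooled, against 1.75% and 3.62% of all genes. Shares this small can give a count of 0 among 27 genes, so no contrast is drawn. For 24 of the 25 the promoter peak was strict in both libraries, a count with no share of all genes to set it against. The exception was Slc30a2, a vesicular zinc transporter of secretory cells such as Paneth cells, whose promoter peaks passed 1e-05 only. Slc30a8, Slc39a4, Slc39a6 and Slc39a14 have no window in the table and were described by their gene boundaries.

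In all, 28 of the 31 members had at least 1 assigned peak, against 69.7% of protein-coding genes. Slc30a8, the zinc transporter of insulin granules, was without a peak, as were Slc39a2 and Slc39a12. The 28 members had 99 lenient peaks at 72 h and 79 at 0 h, or 1.25 times as many at 72 h. The ratio was 1.14 over all genes and 1.27 over the other genes with an Slc symbol. Of the members' peaks, 59 at 72 h (59.6%) and 46 at 0 h (58.2%) were strict, against 61.4% and 56.7% at all genes. At 72 h 36 of the 99 peaks (36.4%) were 72 h only, against 29.0% at all genes and 35.0% at the other Slc genes. At 0 h 10 of the 79 (12.7%) were 0 h only, against 19.7% at all genes and 18.9% at the other Slc genes. When at least 300 bp of overlap was required, the unshared peaks of members were 39 at 72 h (39.4%, against 33.0% at all genes) and 16 at 0 h (20.3%, against 23.7%). Slc39a11 alone held 6 of the 36 and 6 of the 10. Without Slc39a11, 30 peaks of members were in the 72 h library alone and 4 in the 0 h library alone.

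**Figure D1:**
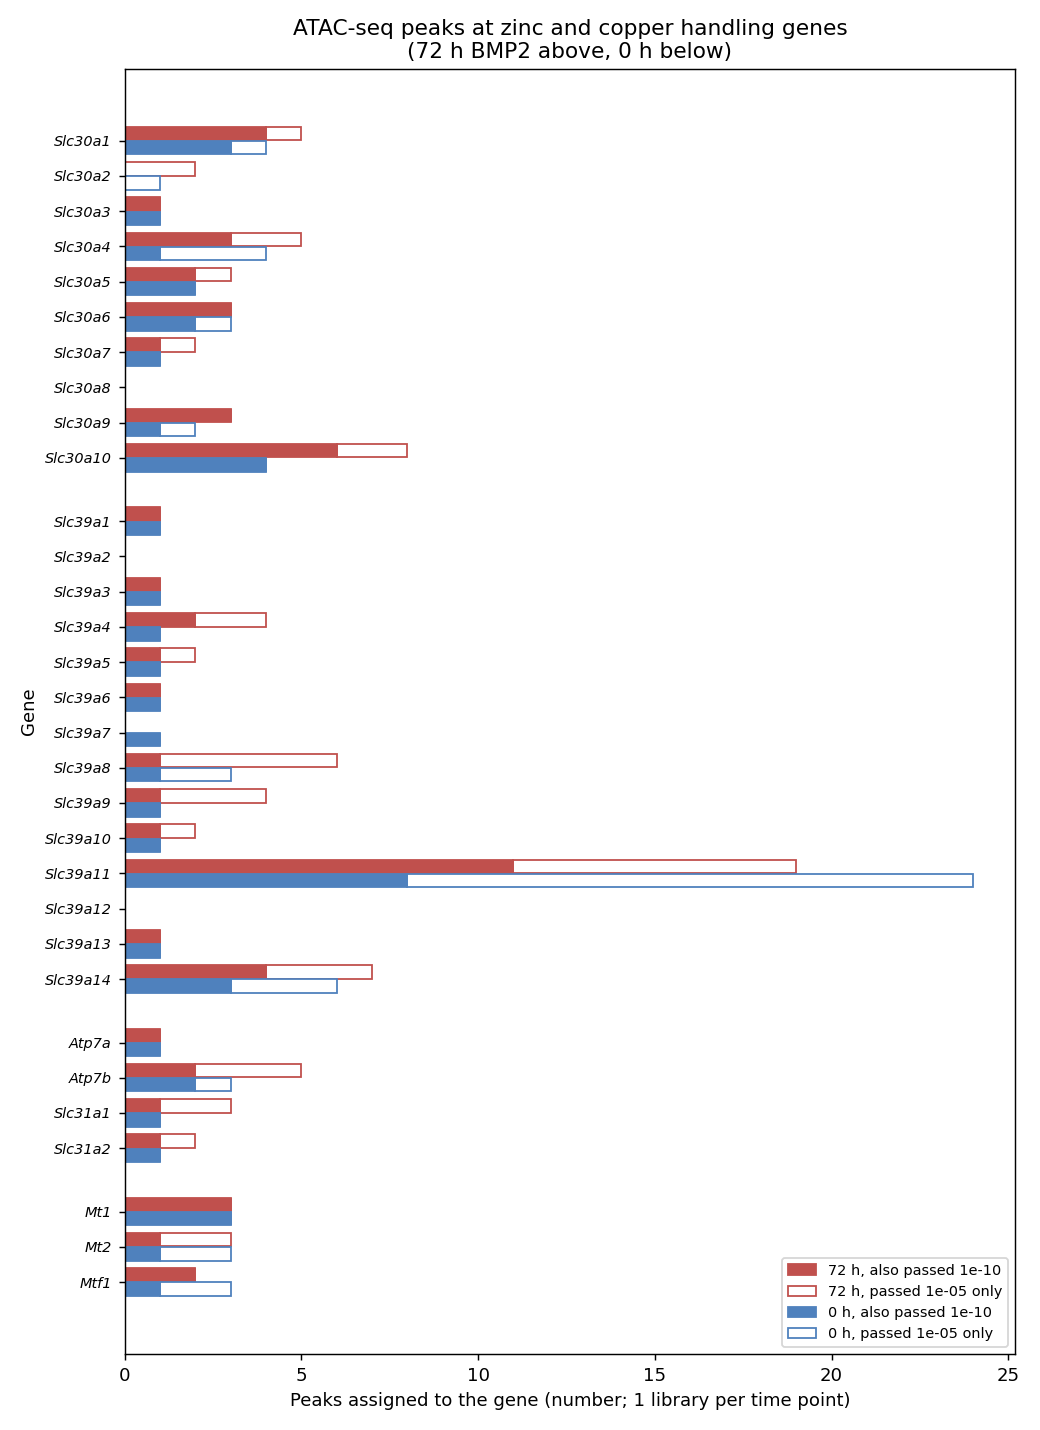
Number of ATAC-seq peaks assigned to each of the 31 members in the 72 h library (upper bar, red) and the 0 h library (lower bar, blue), with peaks that also passed 1e-10 filled. Slc39a11 has the longest bars, with 19 peaks at 72 h and 24 at 0 h, while Slc30a10 has 8 and 4.

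More lenient peaks at 72 h than at 0 h were assigned to 16 of the 28 members (57.1%), fewer to 3 (10.7%) and the same number to 9. Over the 15253 genes with a peak, 37.0% had more at 72 h and 24.2% fewer. A peak at 72 h only was found at 16 members, against 39.9% of all genes with a peak, and a peak at 0 h only at 4, against 29.7%. All 4 (Atp7b, Slc30a1, Slc39a8 and Slc39a11) also had peaks at 72 h only. The remaining 12 members had no peak of 1 library only, as did 43.5% of all genes with a peak. More lenient peaks at 72 h were thus found at 57.1% of the members, against 46.7% of the 287 other genes with an Slc symbol and a peak. A peak at 72 h only was found at 57.1% of the members and 56.1% of the other Slc genes. A peak at 0 h only was found at 14.3% of the members and 34.8% of the other Slc genes. These shares carry no test, and the members are genes and not replicates.

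Strict peaks at 72 h only were assigned to 7 of the 28 members (25.0%, exact Clopper-Pearson 95% interval 10.7 to 44.9, counting error only). The background was 18.6% of all genes with a peak and 28.6% of other Slc genes (23.4 to 34.2), both inside the interval of the members. The 7 were Slc30a1, Slc30a4, Slc30a9, Slc30a10, Slc39a4, Slc39a11 and Slc31a1. Slc30a10 and Slc39a11 had 2 such peaks each, and 4.9% of all genes with a peak had at least 2. A strict peak at 0 h only was assigned to 1 member, Atp7b (3.57%, 0.0904 to 18.3). The background was 6.66% of all genes (6.27 to 7.07) and 7.67% of other Slc genes (4.87 to 11.4). The share of members with a strict peak of either kind was therefore not distinguishable from the background at this number of genes.

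**Figure D2:**
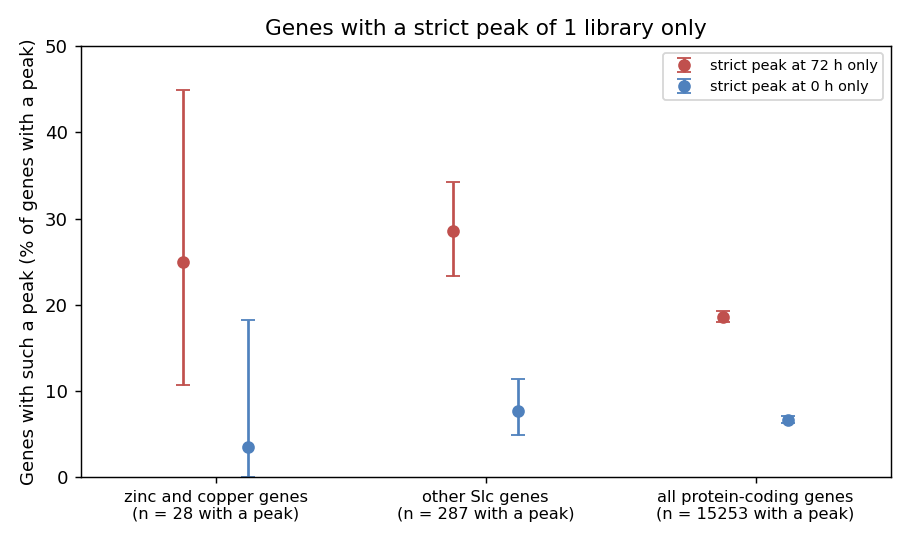
Share of genes with at least 1 strict peak at 72 h only (red) or at 0 h only (blue), in percent of the genes with a peak, with exact 95% intervals of counting error. The intervals of the 28 zinc and copper genes, 10.7 to 44.9 and 0.0904 to 18.3, hold the values of the other Slc genes and of all protein-coding genes.

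Among the zinc exporters and organelle loaders, 9 of 10 had a peak, with 32 lenient peaks at 72 h and 22 at 0 h. Peaks of 1 library only numbered 12 at 72 h (37.5%, against 29.0% at all genes and 35.0% at other Slc genes). At 0 h they numbered 1 (4.55%, against 19.7% and 18.9%). Strict peaks at 72 h only lay at 4 of the 9 genes, Slc30a10, Slc30a1, Slc30a4 and Slc30a9, and none of the 9 had a strict peak at 0 h only. Over all genes with a peak the shares were 18.6% and 6.66%, and both lie inside the exact intervals of these 9 genes, 13.7 to 78.8% and 0.0 to 33.6%. Slc30a10, which carries manganese rather than zinc out of liver and intestinal cells, had 8 peaks at 72 h and 4 at 0 h. All 4 of its 0 h peaks were shared and strict, and all 4 added peaks lay outside the gene. The strict ones were at chromosome 1, 185469304 to 185469904, 0.842 kb beyond the far end of the gene, and at 185515630 to 185516230, 47.2 kb beyond it. Between them stood a lenient peak at 72 h only, 15.1 kb beyond the gene, and 2 shared strict sites, at 33.8 and 40.4 kb at 72 h. The next protein-coding gene, Eprs, was farther from each of these sites than Slc30a10.

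Slc30a1, the plasma membrane zinc exporter, had 5 peaks at 72 h and 4 at 0 h. Its promoter, a site 0.806 kb into the gene at 72 h and a site 1.60 kb beyond the gene were strict in both libraries. The strict peak at 72 h only lay upstream at chromosome 1, 191891850 to 191892450, 14.6 kb before the RefSeq start. A lenient peak at 72 h only was centred 31.6 kb before the start. A lenient peak at 0 h only lay between the strict one and the gene, 12.1 kb before the start. The 0 h peak numbering skips 2 numbers around both 72 h-only peaks of Slc30a1, so a 0 h peak missing from the list there cannot be told apart from no peak. Without peaks that lie beside such a gap, an alternative chosen after seeing the data, 6 members had a strict peak at 72 h only and 1 at 0 h only.

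Slc30a4, a vesicular zinc transporter, had 5 peaks at 72 h and 4 at 0 h. Its strict peak at 72 h only lay inside the gene on chromosome 2, 122697402 to 122698002, 4.96 kb downstream of the start. A lenient peak at 72 h only was 2.08 kb upstream of the start. A shared site 5.61 kb upstream at 72 h was strict at 72 h and lenient at 0 h. Slc30a9, a mitochondrial zinc transporter, had 3 peaks at 72 h, all strict, and 2 at 0 h, of which 1 was strict. Its strict peak at 72 h only lay inside the gene on chromosome 5, 67347023 to 67347623, 40.4 kb downstream of the start. A shared site 6.98 kb beyond the gene at 72 h was strict at 72 h and lenient at 0 h.

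The other Slc30 genes with peaks had no strict peak of 1 library only. Slc30a5 and Slc30a6, which form a heteromer in the early secretory pathway, had 3 peaks each at 72 h, and 2 and 3 at 0 h. The added Slc30a5 peak was lenient and lay 23.4 kb upstream of the start. All Slc30a6 peaks were shared and formed 2 sites, of which the promoter site held 2 strict peaks in each library and the site 7.08 kb downstream of the start was strict at 72 h only. Slc30a7, a Golgi zinc transporter, had 2 peaks at 72 h and 1 at 0 h, the added one lenient and 0.666 kb into the gene. Slc30a2 had 2 and 1, the added one lenient and 4.84 kb downstream of the start. Slc30a3, the zinc transporter of synaptic vesicles, had 1 shared strict peak in each library, at the inner of its 2 annotated starts.

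**Figure D3:**
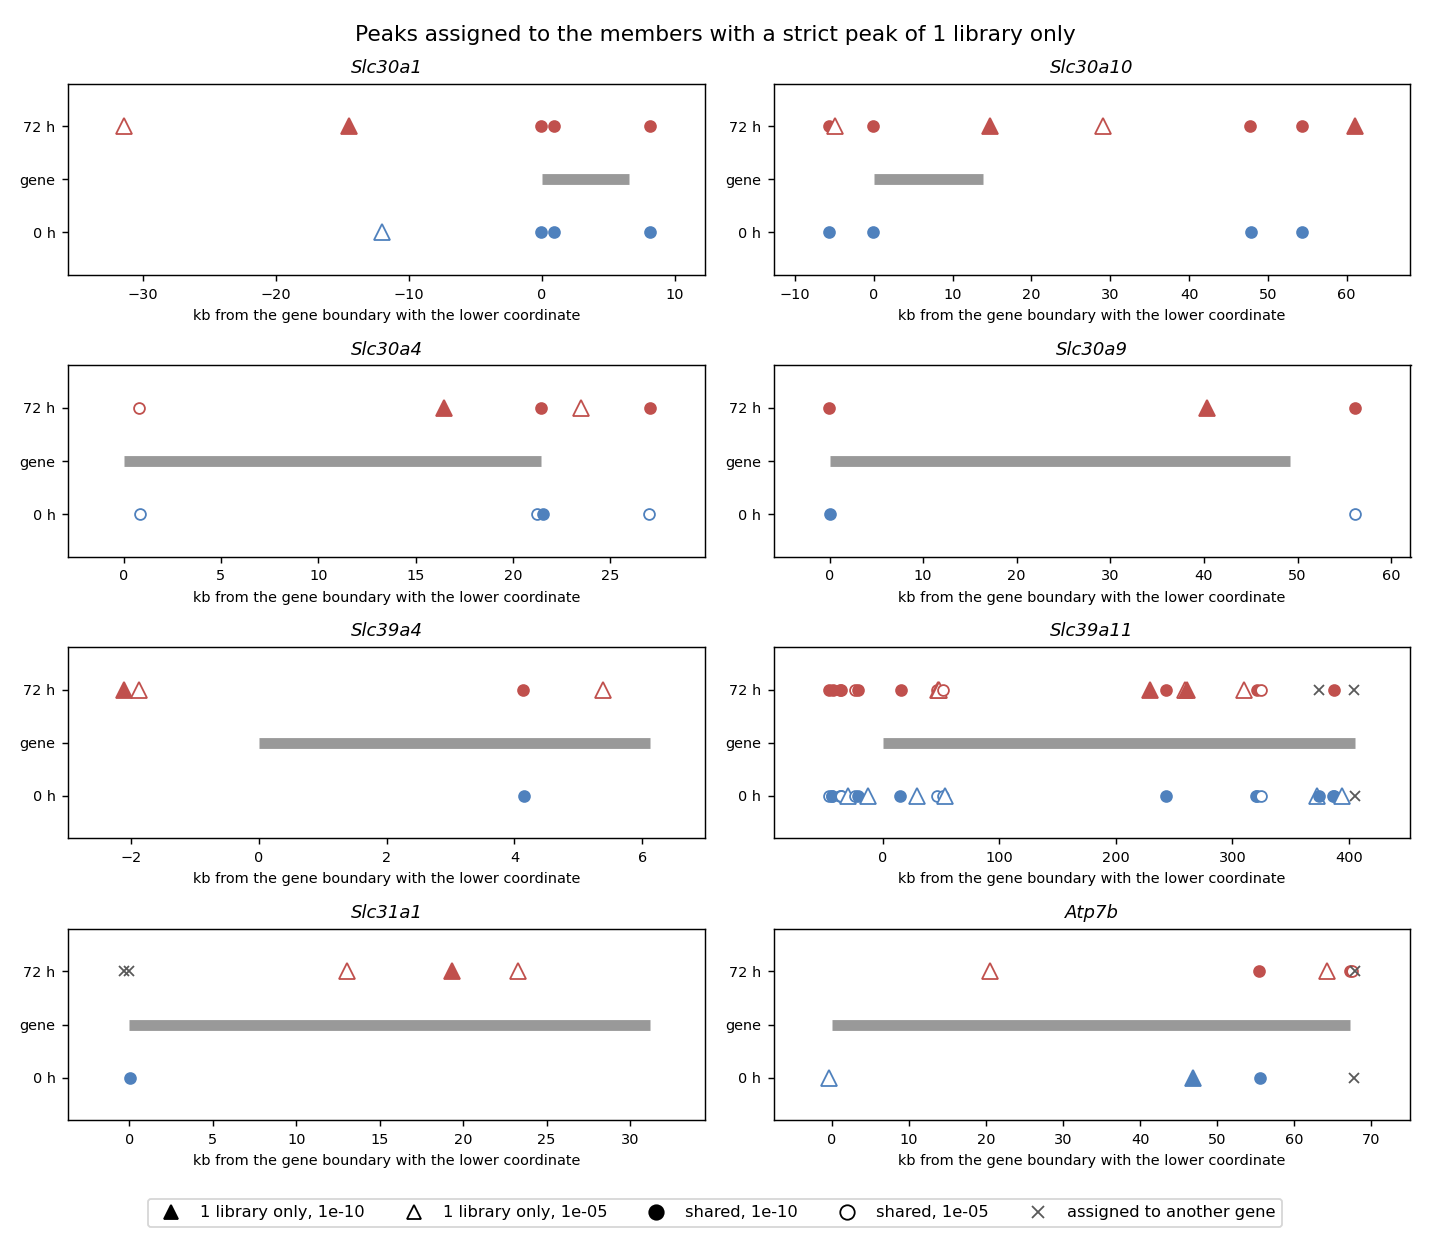
Positions of peaks at the 8 members with a strict peak of 1 library only, in kb from the gene boundary with the lower coordinate, for the 72 h library (upper row, red) and the 0 h library (lower row, blue); the grey bar is the gene, triangles are peaks of 1 library only, circles shared peaks, filled symbols passed 1e-10, and crosses are peaks assigned to another gene. Filled triangles stand in the 72 h row for 7 genes and in the 0 h row for Atp7b.

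Among the zinc importers, 12 of 14 had a peak, with 48 lenient peaks at 72 h and 42 at 0 h. Peaks of 1 library only numbered 18 at 72 h (37.5%, against 29.0% at all genes and 35.0% at other Slc genes). At 0 h they numbered 7 (16.7%, against 19.7% and 18.9%). Strict ones were found at 72 h only, at Slc39a4 and Slc39a11, or 16.7% of the 12 genes against 18.6% of all genes with a peak. Slc39a4, the apical zinc importer of enterocytes that is mutated in acrodermatitis enteropathica in humans, had 4 peaks at 72 h and 1 at 0 h. The single 0 h peak, 1.98 kb inside one end of the gene, was shared and strict in both libraries. The other 3 were at 72 h only. A strict peak on chromosome 15, 76609965 to 76610565, lay 2.12 kb outside the gene and overlapped a lenient one 1.87 kb outside it, so the 2 form 1 site. The strict peak was nearly as close to Cpsf1, 2.60 kb away. The last was lenient and lay inside the gene, 0.742 kb from the same end as the shared peak, while the strict one lay beyond the opposite end. These 3 peaks lay where the 0 h numbering is complete.

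Slc39a11, a ZIP family gene that spans 405.4 kb, had 19 peaks at 72 h and 24 at 0 h. It was the member with the most peaks and the only one with over 1 peak fewer at 72 h. Some of its 0 h peaks overlapped each other, however. The shared site at 113208295 to 113209732, for example, held 2 peaks at 72 h and 3 at 0 h. The lower number at 72 h is thus a count of calls and does not show sites lost. Peaks of 1 library only numbered 6 in each library. The 6 at 72 h lay inside the gene. Of these, 2 lenient ones, 47.4 and 48.3 kb from the nearer gene end, lay where the 0 h numbering skips 1 number. Another 2 of the 6 were strict, at chromosome 11, 113474109 to 113474709 and 113505449 to 113506049, which is 91.4 and 60.1 kb downstream of the inner annotated start. The 6 at 0 h were all lenient, 4 inside the gene and 2 outside, 29.8 and 12.6 kb from the gene end. Several shared sites lay 20.8 to 46.1 kb outside that end, in the gene-poor interval toward Sox9. Strict peaks at Slc39a11 numbered 11 at 72 h and 8 at 0 h, the opposite order to its lenient peaks with overlapping ones counted singly.

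Slc39a8 and Slc39a9 showed additions at the lenient threshold only. Slc39a8, which carries zinc and manganese, had 6 peaks at 72 h and 3 at 0 h, of which 4 and 1 were unshared. The 4 lay 28.9 and 26.4 kb upstream and 7.04 and 19.3 kb downstream of a start. The 0 h-only peak, 0.923 kb downstream, stands beside 1 number skipped in the 72 h list. Slc39a9, a zinc transporter of the secretory pathway, had 4 peaks at 72 h and 1 at 0 h. The 3 added peaks lay 2.36, 5.64 and 10.6 kb downstream of its start. Together with Slc39a4, these were the members with 3 more peaks at 72 h than at 0 h, after Slc30a10 with 4 more.

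Slc39a5, a basolateral zinc importer of enterocytes and pancreas, has 2 annotated starts, 0.758 kb apart. The downstream start had a shared peak, strict in both libraries. The upstream one, printed above, was overlapped by a lenient peak at 72 h only, on chromosome 10, 128400938 to 128401538. Of all 21262 promoter windows, 1.99% had a peak in the 72 h library alone and 3.78% in the 0 h library alone. This peak of Slc39a5 is centred 0.156 kb from Nabp2, the neighbouring gene, so both genes' ends lie under it. Slc39a14, which also carries iron and manganese, had 7 peaks at 72 h and 6 at 0 h. Its added peak was lenient and 4.94 kb inside the gene, and a shared site 2.83 kb outside the gene was strict at 72 h only.

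The remaining importers had shared peaks only. Slc39a1 and Slc39a3, plasma membrane importers, Slc39a13 of the secretory pathway and Slc39a6 had 1 strict peak each in both libraries. Slc39a10 had 2 peaks at 72 h, both overlapping its single 0 h peak at the inner of 2 starts. Slc39a7, which releases zinc from the endoplasmic reticulum, had 1 peak at 0 h and none at 72 h. Its promoter window was overlapped by a peak in both libraries, but the 72 h peak there was assigned to another gene. The 0 h midpoint lay 0.052 kb from Slc39a7 and 0.07 kb from Rxrb.

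The 4 copper transporters had 11 lenient peaks at 72 h and 6 at 0 h, of which 6 (54.5%) and 2 (33.3%) were found in that library alone. Both shares were above those of all peaks at genes, 29.0% and 19.7%, and of other Slc genes, 35.0% and 18.9%. The 2 peaks at 0 h only were both at Atp7b. Shared promoter peaks of Slc31a1 at 72 h and of Atp7b at 0 h went to neighbouring genes, which raises these shares. With so few peaks no contrast is drawn from them. Of the 4 genes, 1 had a strict peak at 72 h only and 1 at 0 h only. Slc31a1, the high-affinity copper importer, had 3 peaks at 72 h and 1 at 0 h. The 0 h peak was at the promoter, and both 72 h peaks that overlap it, of which 1 was strict, were assigned to Fkbp15, whose end lies 0.004 kb from the 0 h midpoint. All 3 of its 72 h peaks were therefore 72 h only, and all lay inside the gene, 12.9, 19.2 and 23.2 kb downstream of the start. The middle one was strict, on chromosome 4, 62379587 to 62380187. Slc31a2, a relative with low copper affinity, had 2 peaks at 72 h and 1 at 0 h. Its shared promoter peak was strict in both, and its added lenient peak lay 8.14 kb upstream of the start.

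Atp7b, the copper ATPase mutated in Wilson disease in humans, was the single member with a strict peak at 0 h only. This peak lay inside the gene on chromosome 8, 22039396 to 22039996, 20.4 kb downstream of the start. A second 0 h-only peak, which was lenient, lay 0.408 kb outside the opposite end of the gene. Atp7b had 5 peaks at 72 h and 3 at 0 h, and lenient peaks at 72 h only stood 2.95 and 46.8 kb downstream of the start. A site 11.9 kb downstream at 72 h was strict in both libraries. The 0 h promoter peak was assigned to Alg11. Atp7a, the copper ATPase that exports copper from enterocytes and is mutated in Menkes disease in humans, had 1 peak in each library, at the promoter and strict.

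The metallothionein locus did not differ between the libraries at the level of calls. Mt1 had 3 peaks at 72 h and 3 at 0 h, all strict, at the promoter and at 3.07 and 6.43 kb beyond the gene at 72 h. Both libraries' promoter peaks covered all 280 printed bases of the Mt1 window. Mt2 had 3 and 3, with the promoter strict in both and the others, 5.18 kb upstream and 0.164 kb beyond the gene at 72 h, lenient in both. Its promoter peaks covered 231 of the 280 printed bases at 72 h and 238 at 0 h. The first printed core of Mt2, 223 bases before the start, lay outside both. The 6 shared pairs overlapped by 568 to 595 bp. Mtf1 had 2 peaks at 72 h and 3 at 0 h. Its promoter was strict in both libraries, and the extra 0 h peak was a lenient one overlapping the promoter site. A shared site 15.5 kb into Mtf1 at 72 h was strict at 72 h and lenient at 0 h. The lists give no peak heights, so a change in height at these shared sites was not measured.

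Peaks of both libraries that overlapped were merged into 101 sites at members and 38821 at all genes. At members 35 sites (34.7%) held 72 h peaks alone and 10 (9.9%) held 0 h peaks alone, against 26.9% and 15.8% at all genes. Merging moves the midpoint, and a merged site can then go to another gene. This happened to shared sites at an end of Slc30a7, Slc31a1, Slc39a6, Slc39a7 and Slc39a9, which are missing from the 101. These shares therefore depend on the assignment. Of the 56 shared member sites, 39 were strict in both libraries, 6 at 72 h only and 11 in neither. The 39 were 38.6% of the 101 sites, against 36.9% at all genes, and the 11 were 10.9%, against 7.79%. The 6 (10.7%, against 13.6% of all shared sites) were at Mtf1, Slc30a4, Slc30a6, Slc30a9, Slc39a11 and Slc39a14. None of the 56 was strict at 0 h only, against 8.43% of all 22245 shared sites. A count of 0 allows a share of up to 5.36% (3 counts of the 56) only if the sites are independent. Many of the 56 lie at the same gene, with 7 of the 39 at Slc39a11 alone, so no contrast is drawn. This 0 also depends on the assignment: a 0 h strict peak assigned to Slc39a11, 30.8 kb downstream of its upstream start, overlapped a lenient 72 h peak assigned to Sstr2, and the merged site went to Sstr2. With every gene within 50 kb counted, 11 shared sites were strict at 72 h only and 5 at 0 h only.

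**Figure D4:**
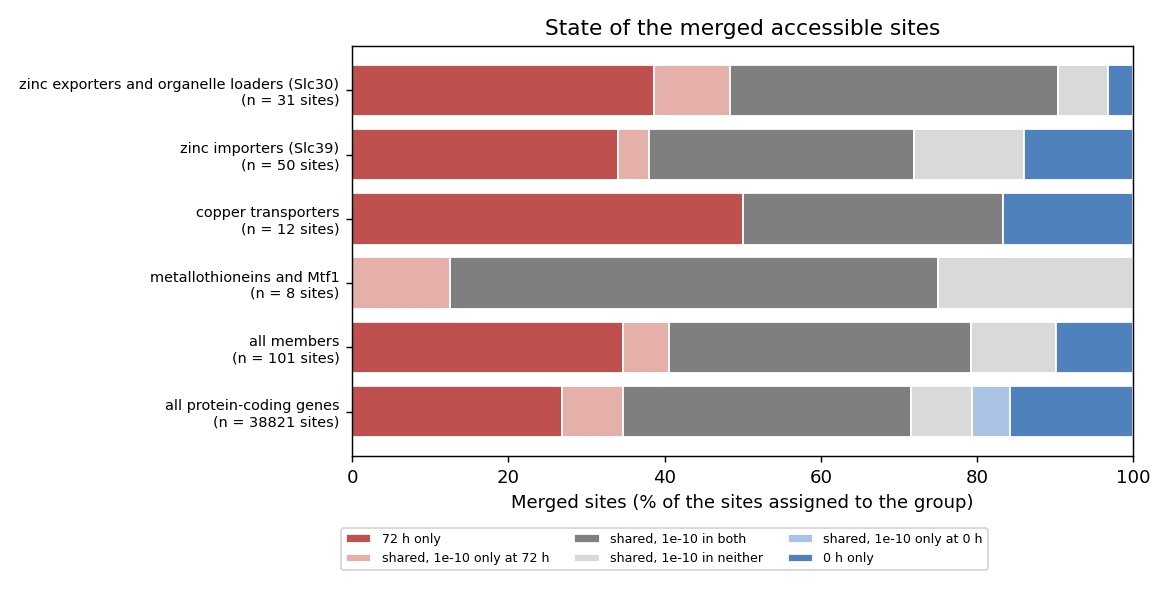
Merged sites by state, in percent of the sites assigned to each of the 4 groups of members, to all members and to all protein-coding genes. The metallothionein and Mtf1 group has no site of 1 library only among 8, whereas of the 31 Slc30 sites 12 held 72 h peaks alone and 1 held 0 h peaks alone. Shared sites at gene ends that went to another gene after merging are not counted at the members.

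Most 72 h-only peaks lay away from gene boundaries. Of the 9 strict peaks at 72 h only, 1 was within 1 kb of a gene end (11.1%), 5 were deeper inside the gene and 3 were outside it, against 6.55%, 55.9% and 37.6% of all such peaks. The 27 lenient peaks at 72 h only divided in the same shares, with 3, 15 and 9. Of the shared member peaks, 39.7% at 72 h and 39.1% at 0 h were within 1 kb of a gene end, against 47.9% and 47.7% of all shared peaks. At members as over all genes, the share near a gene end was thus lower among 72 h-only peaks than among shared ones, a difference that was not tested.

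Of a list of 18 further zinc and copper genes, such as copper chaperones and metalloreductases, 14 had a peak, with 38 lenient peaks at 72 h and 26 at 0 h. Strict peaks at 72 h only were assigned to 5 of the 14 (35.7%, exact interval 12.8 to 64.9) and at 0 h only to 2 (14.3%, 1.78 to 42.8). Both intervals hold the shares of all genes with a peak, 18.6% and 6.66%. Commd1, a regulator of copper export, had 2 at 72 h only. Cp (the copper oxidase ceruloplasmin), Cox17 (a copper chaperone of cytochrome oxidase), Cox19 (an assembly factor of that enzyme) and Cutc had 1 each at 72 h only. Cox19 also had 1 at 0 h only, as did Ccs, the copper chaperone of superoxide dismutase. Cp had 1 peak at 72 h and none at 0 h.

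Peaks were also counted at cell type markers. All 10 intestinal epithelial markers, among them Epcam, Cdh1, Vil1 and Cdx2, had peaks in both libraries, with 62 lenient peaks in each. Of fibroblast and smooth muscle markers 6 of 8 had a peak at 72 h and 3 at 0 h, with 11 and 9 peaks in all. Of immune markers 3 of 6 had one at 72 h and 2 at 0 h (3 and 3 peaks), and of endothelial markers 2 of 4 and 3 of 4 (6 and 4 peaks). Of all protein-coding genes, 69.7% had an assigned peak in at least 1 library, so a peak at a marker does not identify a cell type. The part of other cell types in the results was not tested. The lenient lists held 41343 regions in the 72 h library and 35857 in the 0 h library in all, of which 25040 and 19910 were strict.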

How the data were processed

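ATAC-seq peak lists of 2 mouse organoid libraries, 72 h and 0 h of BMP2, were used. Tools named by the authors, per the submitters' processing notes, were MACS2 (2.2.7.1) for peaks, Bowtie2 (2.4.1), cutadapt (1.9.1) and bedtools (2.26.0), with Picard (2.18.27), SAMtools (1.3.1) and deepTools (3.5.4), on the mm10 build. Whether reads were shifted for the Tn5 cut, and how duplicates were handled, is not given in the sources used here. All deposited lists hold coordinates and peak names only, called per library; the thresholds are read from the list names. Peak numbers without a row come to 740 at 72 h and 1427 at 0 h. Depth is unknown, so precision could not be derived from it.

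Genes came from RefSeq (GRCm38.p6) and promoter sequences from RefSeq's table of the same build. Of its windows of 300 bases, the first 280 were searched and printed; strand was known only for genes in it. The peak assignment and overlap code was tested on simulated intervals. Strict peaks of 1 library only were nearly the same as the authors' enriched regions: 4534 of 4535 at 72 h and 1274 of 1275 at 0 h. Intervals are exact Clopper-Pearson at 95%. For the count of 0 among shared member sites the limit is 3 counts of the total. Both cover counting error only and take the units as independent. No test between time points was possible with 1 library each. Genes described singly were to be members with a strict peak of 1 library only, members with peaks assigned in 1 library only or none, Mt1, Mt2, Mtf1, Slc39a4, Slc30a1, Slc31a1, Atp7a, Atp7b, and the 3 with the largest difference in peaks; 3 members tied for the last place and all are given, and the other members are described for completeness. The members and lists were chosen with earlier results of these data known. Alternatives varied the overlap, the distance, the assignment, the merging of peaks and the list of peaks. Computations ran in Python 3.11.15 with pandas 2.3.3, numpy 2.4.6, matplotlib 3.10.9 and SciPy 1.17.1.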

Additional observations from a re-analysis of the deposited data

How the results depend on the processing

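No paired analysis was possible because each time point is 1 library. The 8 counts were recomputed under up to 10 other settings, of which 2 (without Slc39a11, and without peaks beside a numbering gap) were chosen after seeing the data; 50 of the 60 values stayed within 1.5 times the main count. Members with a strict peak at 72 h only ranged from 6 to 10. Those with one at 0 h only numbered 1, or 2 with every gene within 50 kb or when compared with the strict list of the other library. Counting every gene within 50 kb gave 210 lenient peaks at 72 h and 177 at 0 h, 58 and 20 of them unshared, and 11 shared sites strict at 72 h only and 5 at 0 h only; this rule counts more peaks by construction. Requiring 300 bp of overlap gave 39 unshared peaks at 72 h and 16 at 0 h; leaving out Slc39a11 gave 30 and 4. Unshared peaks at 72 h outnumbered those at 0 h under each alternative run. They did so over all protein-coding genes too, with 10942 and 6485 at the main setting and 12436 and 7819 with 300 bp of overlap. This direction is therefore not particular to the members. Peak lists without heights limit every statement to calls, and nearest-gene assignment does not show which gene a site acts on.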
